A study of Homo sapiens with 9 samples.

Results

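The genes described here make, pack, take up and break down catecholamines, or form the matrix of the granules that store them. They are the 10 genes TH, GCH1, DDC, DBH, SLC18A1, SLC18A2, SLC6A2, MAOA, CHGA and CHGB, chosen by name as genes of the pathway and looked up by symbol among the 14943 genes of the count table. All 10 were present, so 0 were missing after the authors' filter on low genes. Measurements came from SH-Sy5y, an established human neuroblastoma cell line that keeps features of noradrenergic cells of the sympathetic lineage. Its cells received a mimic of the microRNA miR-1229-3p, a negative control oligonucleotide, or a mix of both for 48 h, and RNA with a poly(A) tail was sequenced.

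Control cells (Ctrl.) received 40 pmol of the negative control oligonucleotide and 0 pmol of mimic. Cells at 10 nM received 20 pmol of each, and cells at 20 nM received 40 pmol of mimic and 0 pmol of the control oligonucleotide. Total RNA in the transfection was thus constant, and cells at 20 nM differ from controls both by the mimic and by lacking the control oligonucleotide. There were 3 libraries in each of the 3 groups, with 17.4 to 28.2 M estimated counts per library, all from a single cell line. Whether the replicates came from separate cultures is not stated in the sources used here, so p-values measure the spread between these libraries, which may be technical. The third library at 20 nM stood apart from the others: on the first principal component (30.4% of the variance) it lay at 47.4, while the other 8 libraries lay between -17.1 and 7.72.

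Catecholamines are made from tyrosine in steps. Tyrosine hydroxylase (TH), which needs the cofactor tetrahydrobiopterin made from GTP by the pathway that GCH1 opens, forms L-DOPA. Aromatic amino acid decarboxylase (DDC) turns it into dopamine, which vesicular monoamine transporters (SLC18A1, SLC18A2) carry into granules, where dopamine beta-hydroxylase (DBH) forms noradrenaline. Chromogranins (CHGA, CHGB) pack the granule core, the noradrenaline transporter (SLC6A2) retrieves released amine across the plasma membrane, and monoamine oxidase A (MAOA) breaks down amine in the cytosol. A microRNA acts mainly through its seed, which pairs with short sites in the 3′ untranslated region (UTR) of a messenger RNA and lowers its level or translation.

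The mature miR-1229-3p is given here with its seed, bases 2 to 8 counted from the 5′ end, in capitals, because the sites searched in the members are its complement. RefSeq places its 23 bases at chr5:179798278-179798300 on the minus strand (GRCh38.p14), within the gene MGAT4B.
miR-1229-3p: cUCUCACCacugcccucccacag

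The 3′ UTRs of the 10 members were searched, on the strand of the transcript, for the 8-mer GGTGAGAA, its leading 7-mer GGTGAGA, its trailing 7-mer GTGAGAA and the shared 6-mer GTGAGA, each longer match replacing the shorter one it holds. SLC6A2 had 3 matches in the 3846 bases of the 3′ UTR of its canonical transcript, and the other 9 members had 0, with UTRs of 304 to 2304 bases. The longest annotated 3′ UTRs, up to 5852 bases for SLC6A2, gave the same counts of matches per member. Among 13826 genes of the table with a canonical 3′ UTR, 21.0% held a 7-mer or 8-mer and 35.8% held any of the 4 motifs, beside 1 of 10 members. In SLC6A2 the matches began at bases 1110, 1931 and 3023 of the 3′ UTR. The last is a 6-mer and the other two are 7-mers that pair with all of bases 2 to 8. They are printed with their surroundings and with the matched bases in capitals, as the sense strand of GRCh38, since SLC6A2 is the member in which the mimic has a match. A match describes letters in the annotated UTR. Which 3′ ends SLC6A2 uses in these cells was not measured.
SLC6A2, first site, chr16:55703443-55703472, plus strand: ccttggagggcagGGTGAGAcaagcagccc
SLC6A2, second site, chr16:55704264-55704293, plus strand: tccccatttcccaGGTGAGAgaaccaaggc
SLC6A2, last site, chr16:55705355-55705384, plus strand: ctagcctcgctaatGTGAGActgaagcatt

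Levels of the members in control cells were compared per length, as CPM (counts scaled to a fixed library total, with TMM factors) divided by the length of the canonical transcript in kilobases. The last enzyme of noradrenaline synthesis and the granule genes stood high and the first enzyme stood low. DBH was the highest of the members at 550 ± 46.3 CPM per kb (SD, n = 3) and ranked 94 of 14873 genes with a length. CHGA followed at 275 ± 45.8 CPM per kb, SLC6A2 at 143 ± 8.53 and CHGB at 122 ± 25.6. The ranges of SLC6A2 and CHGB overlapped, so their order is not settled by these libraries, while DBH, CHGA and SLC6A2 did not overlap one another.

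In the middle of the order stood DDC at 66.1 ± 6.47 CPM per kb and GCH1 at 60.0 ± 8.89 CPM per kb, whose ranges overlapped. SLC18A1, the vesicular transporter known from adrenal chromaffin cells, was at 36.6 ± 1.70 CPM per kb, and MAOA was at 3.72 ± 0.465 CPM per kb. TH was at 0.327 ± 0.0186 CPM per kb, rank 13918, and SLC18A2, the vesicular transporter of most monoamine neurons, at 0.289 ± 0.0545 CPM per kb, rank 14037, with overlapping ranges. Per length, DBH therefore exceeded TH by 1683-fold (1537 to 1805 over the control libraries) and SLC18A1 exceeded SLC18A2 by 129-fold (110 to 153), ranges that cover the spread of libraries and not the choice of length. With the union of all annotated exons as the length, levels of 7 members moved by more than their SD, the ratios became 2929-fold and 95.6-fold, and the order changed only within 2 of the overlapping pairs, DDC with GCH1 and TH with SLC18A2.

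**Figure D1:**
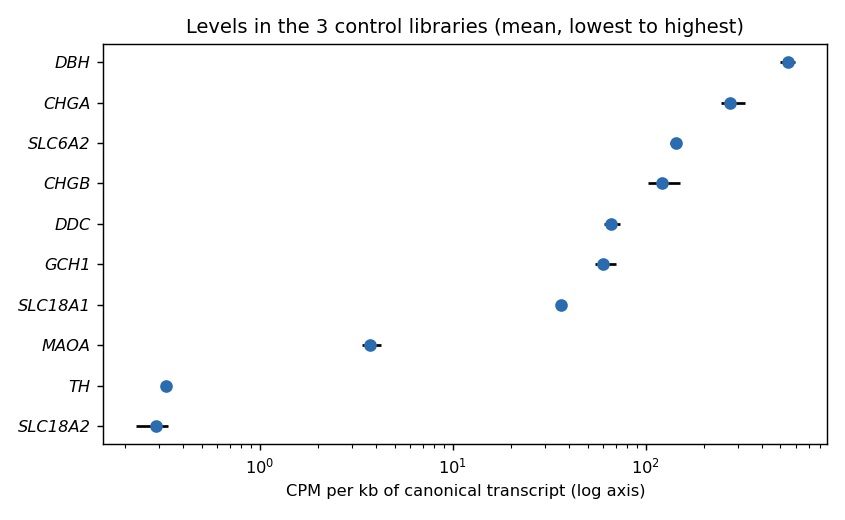
Level of each member in control cells as CPM per kb of canonical transcript, on a log axis. Points are means of the 3 control libraries and lines run from the lowest to the highest library. DBH stands at 550 and TH and SLC18A2 stand near the bottom at 0.327 and 0.289.

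The noradrenergic identity of the line was checked on transcription factors of noradrenergic neuroblastoma. In controls the mean level was 680 CPM for PHOX2A, 1168 CPM for HAND2, 1121 CPM for GATA2, 467 CPM for GATA3, 227 CPM for ISL1 and 503 CPM for TFAP2B. Of 8 mesenchymal markers 7 were in the table, with PRRX1 not listed, and summed to 1642 to 1791 CPM in controls, 1647 to 1805 CPM at 10 nM and 1717 to 1760 CPM at 20 nM. CD44 was the single one of them to pass at 20 nM, with 1.34 to 1.38 CPM in controls and 2.92 to 3.40 CPM at 20 nM (log2 fold change 1.31, adjusted p = 0.00293 by edgeR), and its part in the results was not tested. Of 6 Schwann cell markers 3 were listed, at 5.52 to 7.41 CPM in sum, with SOX10 and FOXD3 among those not listed. For cholinergic neurons SLC18A3 was listed without CHAT and SLC5A7. Adrenocortical markers summed to at most 2.04 CPM, with NR5A1 and CYP17A1 not listed.

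With 20 nM of mimic, DDC and SLC18A1 rose, SLC6A2 fell, and 6 members did not pass the test. TH was called lower too, but it passed a filter on low genes through its controls, so its fall is given as a description. SLC6A2 decreased by 26.9% and DDC rose by 37.7%, SLC18A1 rose by 13.7%, and TH, read from few counts, decreased by 75.3%. With 10 nM none of the 10 passed. Tests used edgeR's quasi-likelihood fit over all 9 libraries with 1 surrogate variable, estimated to stand for variation between libraries beyond the groups. An adjusted p under 0.05 over all 14943 genes was the threshold. The surrogate variable was not free of group: it ran from -0.242 to -0.109 in controls and was 0.907 in the third 20 nM library. At 10 nM it ran from -0.199 to 0.060, and in the other 20 nM libraries it was -0.181 and -0.015. Adjusting for it can thus take part of a group difference out of a fitted fold change. In RNA from whole cultures, fewer cells that carry a transcript and less of it per cell cannot be told apart.

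Read against all genes, 4 of 10 members passed at 20 nM (2 higher and 2 lower), where 13.9% of all genes passed, 7.8% higher and 6.08% lower. By concentration (0, 10 and 20 nM as a number, fold per 20 nM) the same count of 4 passed, where 17.6% of all genes did, 9.92% higher and 7.64% lower. At 10 nM 0 of 10 passed, with 4 at an unadjusted p under 0.05, where 0.649% of all genes passed, 0.221% higher and 0.428% lower. The edgeR likelihood-ratio test and DESeq2 each called 2 members at 10 nM, DDC and SLC6A2, where they called 2.61% and 1.46% of all genes. Between 20 nM and 10 nM 0 of 10 passed by edgeR's quasi-likelihood test, with 3 at an unadjusted p under 0.05, where 2.79% of all genes passed, 1.91% higher and 0.883% lower. There the likelihood-ratio test called 0 members and 5.07% of all genes, and DESeq2 1 member and 3.17% of all genes. The median log2 fold change of the members was 0.08 at both 10 nM and 20 nM, and that of all genes 0.00047 and -0.00016. Libraries did not overlap those of controls for 4 of 10 members at 10 nM and 5 at 20 nM, as for 20% and 28.9% of all genes. Between the mimic groups they did not overlap for 3 of 10 members, as for 14.2% of all genes. TH, a description only, is among the members called lower at 20 nM and by concentration. It is also among the members without overlap between 20 nM and each other group.

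**Figure D2:**
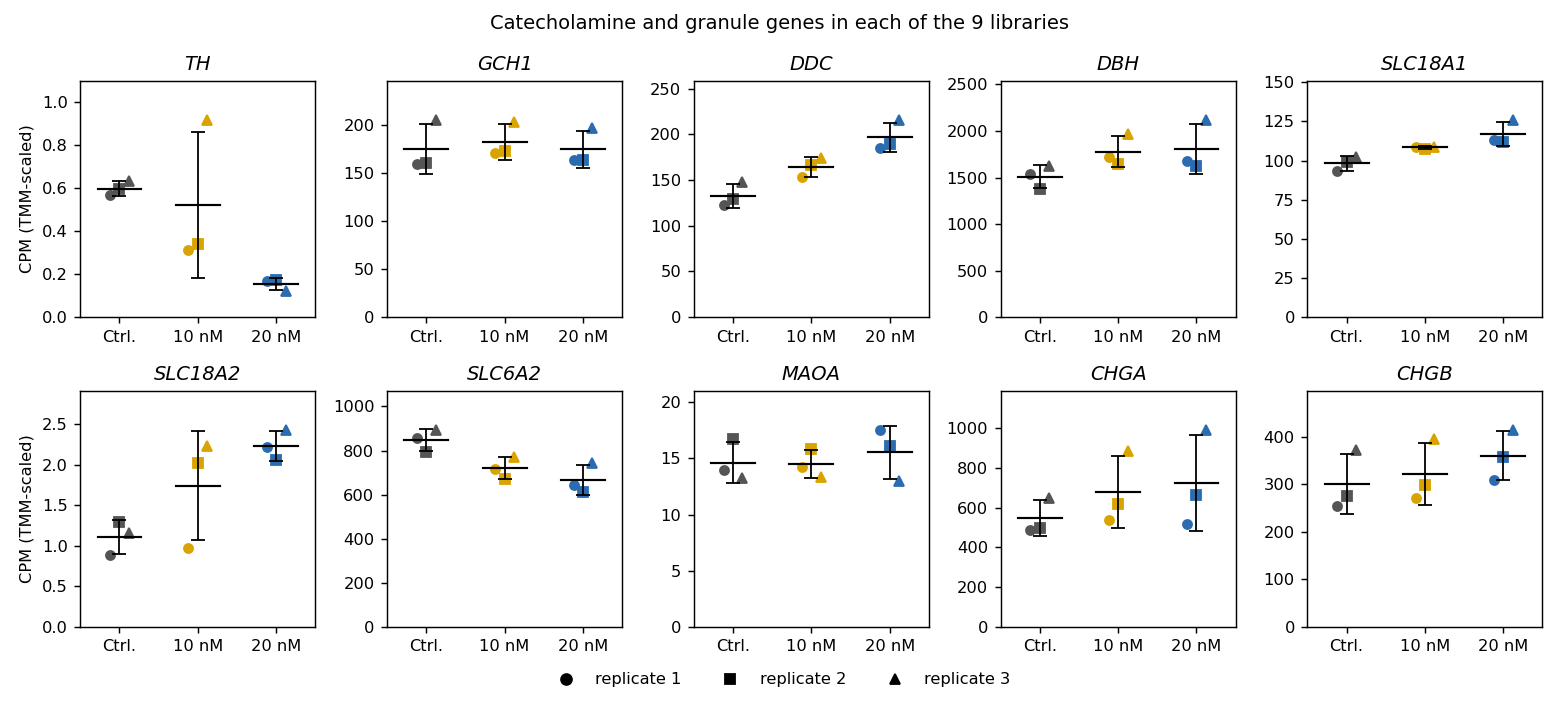
TMM-scaled CPM of each member in each of the 9 libraries, by group, with a separate linear axis from 0 for each gene. Symbols mark the replicate number, horizontal lines the mean and bars the SD of 3 libraries. DDC and SLC18A1 lie above the controls and SLC6A2 below them in both mimic groups, whereas CHGA, CHGB, GCH1 and MAOA overlap the controls.

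Synthesis begins with TH, the rate-limiting enzyme (ENSG00000180176, chr11:2163929-2171815, minus strand). The control libraries held 16, 11 and 17 counts of TH, or 0.565, 0.595 and 0.633 CPM. At 10 nM they held 7, 6 and 16 counts (0.311, 0.338 and 0.914 CPM) and at 20 nM 4, 4 and 3 counts (0.167, 0.172 and 0.122 CPM). All 3 libraries at 20 nM lay below all controls and all 10 nM libraries, whereas at 10 nM a pair of libraries lay below the controls and the third above them. Of the mimic libraries only the third at 10 nM held as many counts as controls, so TH passes a filter on low genes through its controls. A gene kept in that way is more likely to show a fall, so this separation and the fold changes of TH are descriptions. The fitted log2 fold change at 20 nM was -2.02 (SE 0.62, adjusted p = 0.0462 by edgeR) and by concentration -1.69 (SE 0.55, adjusted p = 0.0488 by edgeR).

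Summed over libraries, 11 counts of TH at 20 nM against 44 in controls gave a depth-corrected ratio of 0.256 (95% interval 0.119 to 0.504, counting error only), and 29 counts at 10 nM a ratio of 0.840 (0.507 to 1.37). The adjusted p at 20 nM by edgeR rose above the threshold when any of control libraries 1, 2 and 3, the second 10 nM library, or the first or second 20 nM library was left out, with values from 0.0299 to 0.109 over the 9 omissions. With 2 surrogate variables it was 0.117, and DESeq2 gave TH no adjusted p. The log2 fold change stayed between -2.29 and -1.62 over 18 alternative fits, of which 11 passed. Alternatives, here and below, include a fit without a further filter, which repeats the main fit.

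GCH1 (ENSG00000131979, chr14:54842008-54902826, minus strand), the first enzyme of tetrahydrobiopterin synthesis, stood at 159, 161 and 205 CPM in controls. Its libraries held 170, 173 and 203 CPM at 10 nM and 163, 164 and 197 CPM at 20 nM. The 3 groups overlapped, and the fitted log2 fold change was 0.02 (95% interval -0.15 to 0.20) at 10 nM and -0.14 (-0.34 to 0.06) at 20 nM, with adjusted p by edgeR of 0.928 and 0.365.

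DDC (ENSG00000132437, chr7:50458436-50565405, minus strand), which makes dopamine from L-DOPA, held 123, 129 and 148 CPM in controls. It held 153, 166 and 174 CPM at 10 nM and 185, 189 and 215 CPM at 20 nM. The groups followed one another without overlap. Its log2 fold change was 0.46 at 20 nM (SE 0.067, adjusted p = 0.000742 by edgeR) and 0.50 by concentration (SE 0.062, adjusted p = 0.000142 by edgeR). At 10 nM it was 0.28 with an adjusted p of 0.0603 by edgeR, which did not pass, though it did without the third control library (0.0146) or the third 20 nM library (0.0284). DDC at 20 nM passed in all 20 alternative fits, with log2 fold changes of 0.41 to 0.57. An antisense gene, DDC-AS1, overlaps DDC and is not listed in the table.

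DBH (ENSG00000123454, chr9:133636363-133659329, plus strand), the enzyme that makes noradrenaline inside granules, held 1534, 1373 and 1624 CPM in controls. It held 1724, 1644 and 1965 CPM at 10 nM and 1678, 1623 and 2113 CPM at 20 nM. The 10 nM libraries lay above all controls, while at 20 nM the second library lay within their range. DBH did not pass: its log2 fold change was 0.19 at 10 nM (95% interval 0.05 to 0.34, adjusted p = 0.209 by edgeR) and 0.10 at 20 nM (-0.06 to 0.26, adjusted p = 0.428 by edgeR). Without a surrogate variable the log2 fold change at 20 nM was 0.26, larger than in the fit. The third 20 nM library held the most DBH of the 9 and had the largest weight in the surrogate variable (0.907, against -0.242 to 0.060 for the others). Without that library and with 2 surrogate variables, the number then estimated in an alternative chosen after seeing the data, DBH passed at 20 nM with a log2 fold change of 0.14 (adjusted p = 0.000252 by edgeR). In that fit 29.2% of all genes passed.

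For storage, SLC18A1 (ENSG00000036565, chromosome 8, minus strand) held 93.4, 98.8 and 102 CPM in controls. It held 109, 108 and 109 CPM at 10 nM and 113, 112 and 126 CPM at 20 nM. Its groups did not overlap either. At 20 nM the log2 fold change was 0.19 (SE 0.049, adjusted p = 0.0245 by edgeR) and by concentration 0.21 (SE 0.046, adjusted p = 0.00667 by edgeR). The 20 nM call was lost without the first control library (adjusted p = 0.0899 by edgeR), without the first 20 nM library (0.0842) and without the second (0.0724), while its log2 fold change stayed between 0.15 and 0.25 in all fits.

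SLC18A2 (ENSG00000165646, chr10:117241093-117279430, plus strand) stood near the bottom of detection, at 0.884, 1.30 and 1.15 CPM in controls. It held 0.976, 2.03 and 2.23 CPM at 10 nM and 2.22, 2.06 and 2.43 CPM at 20 nM. All 20 nM libraries lay above all controls, and the 10 nM libraries spread over both ranges. The log2 fold change at 20 nM was 0.88 (95% interval 0.15 to 1.61, adjusted p = 0.107 by edgeR) and by concentration 0.93 (adjusted p = 0.0516 by edgeR), so SLC18A2 did not pass in either. It passed at 20 nM in 4 of 19 alternative fits. Its locus overlaps PDZD8 and SLC18A2-AS1 on the other strand, and reads of PDZD8, which is in the table, cannot be told apart there if strand was not used in counting.

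For reuptake, SLC6A2 (ENSG00000103546, chr16:55655988-55707645, plus strand), whose 3 seed matches are printed above, held 858, 793 and 893 CPM in controls. It held 717, 672 and 772 CPM at 10 nM and 642, 613 and 743 CPM at 20 nM. Every mimic library lay below every control library, while the 10 nM and 20 nM libraries overlapped. With 20 nM its log2 fold change was -0.45 (SE 0.066, adjusted p = 0.000761 by edgeR), -0.42 by concentration (SE 0.057, adjusted p = 0.000248 by edgeR) and -0.26 at 10 nM (SE 0.057, adjusted p = 0.0605 by edgeR). The last did not pass, though it did without the second control library (adjusted p = 0.0455 by edgeR) or the third 20 nM library (0.0138). At 20 nM SLC6A2 passed in all 20 alternative fits, with log2 fold changes of -0.50 to -0.35. Between 20 nM and 10 nM the difference was -0.19 (95% interval -0.32 to -0.06, adjusted p = 0.136 by edgeR).

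For breakdown, MAOA (ENSG00000189221, chrX:43654907-43746817, plus strand) held 14.0, 16.7 and 13.3 CPM in controls. It held 14.3, 15.9 and 13.4 CPM at 10 nM and 17.5, 16.1 and 13.0 CPM at 20 nM. The groups overlapped, and the third 20 nM library was the lowest of the 9. The log2 fold change at 20 nM was 0.24 (95% interval -0.002 to 0.48, adjusted p = 0.182 by edgeR).

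The granule proteins varied between libraries of a group. CHGA, listed in the table under ENSG00000276781 and placed by symbol at chr14:92923150-92935285 (plus strand), held 489, 499 and 651 CPM in controls. It held 539, 618 and 886 CPM at 10 nM and 516, 663 and 991 CPM at 20 nM. CHGB (ENSG00000089199, chr20:5911510-5925353, plus strand) held 254, 276 and 372 CPM in controls, 270, 299 and 395 CPM at 10 nM and 309, 358 and 414 CPM at 20 nM. Both genes overlapped between groups, and the spread at 20 nM reached 33.6% of the mean for CHGA.

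Neither granin passed at 20 nM. The log2 fold change of CHGA was -0.01 (95% interval -0.31 to 0.29) and that of CHGB 0.07 (-0.24 to 0.38), with adjusted p by edgeR of 0.973 and 0.813. The direction of CHGA depended on the third 20 nM library and on the surrogate variable: it was 0.40 without a surrogate variable and 0.11 without that library, and neither passed. When the number of surrogate variables was also estimated again without that library, it was 0.12 with an adjusted p of 0.00432 by edgeR, in the fit where 29.2% of all genes passed. CHGB passed in that fit too, and each granin passed at 20 nM in 2 of 20 alternative fits.

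**Figure D3:**
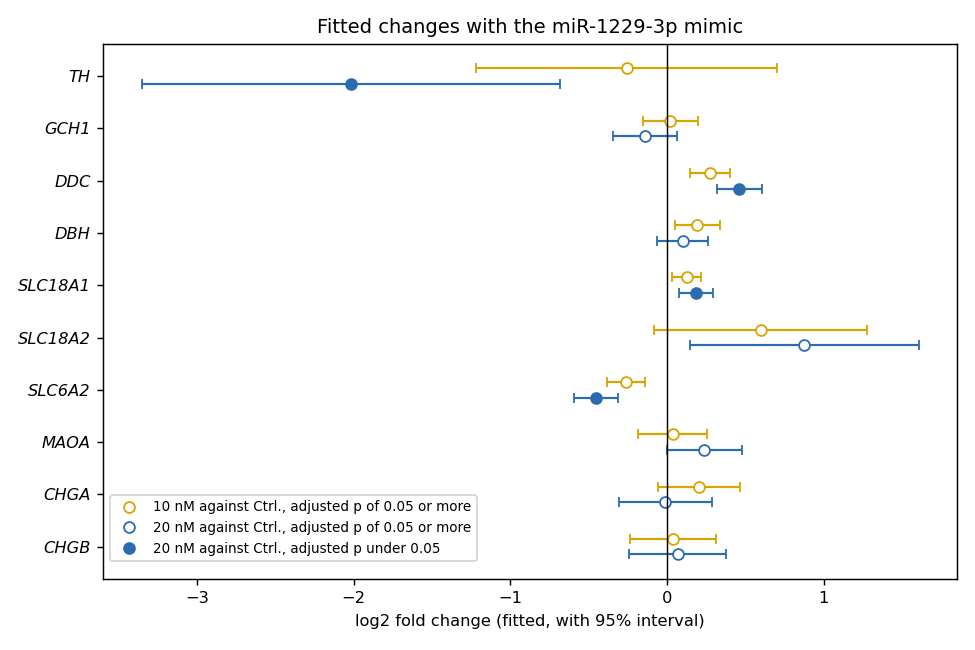
Fitted log2 fold change of each member at 10 nM and at 20 nM against control cells, with the 95% interval of the fit. Filled points have an adjusted p under 0.05 by edgeR, which holds for TH, DDC, SLC18A1 and SLC6A2 at 20 nM. TH passed a filter on low genes through its controls and is shown as a description.

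Many members were highest in the libraries numbered 3. For 7 of the 10 (DDC, DBH, GCH1, SLC18A1, SLC6A2, CHGA and CHGB) library 3 was the highest in each of the 3 groups, as it was for 10.7% of all genes. SLC6A2 and DDC, which changed in opposite directions with the mimic, were both highest there. What the numbers stand for is not stated in the sources used here. A fit with the number as a block is among the alternatives at the end, and more members passed at 20 nM in it.

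Ratios of counts between members within a library carry no scaling between libraries. They were chosen with the values known and are given without a test. SLC6A2 per 100 counts of DBH was 56.0, 57.8 and 55.0 in controls, 41.6, 40.9 and 39.3 at 10 nM and 38.2, 37.7 and 35.2 at 20 nM. This ratio of transcripts separated all 3 groups, and its SD within a group was at most 1.65. Neither reuptake nor synthesis was measured. GCH1 per 100 counts of DDC also separated them, at 131 ± 7.03 in controls, 111 ± 6.36 at 10 nM and 88.6 ± 2.51 at 20 nM (SD, n = 3).

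Among the vesicular transporters, SLC18A2 per 100 counts of SLC18A1 was 1.12 ± 0.18 in controls, 1.60 ± 0.60 at 10 nM and 1.92 ± 0.072 at 20 nM (SD, n = 3). SLC18A1 thus remained the main vesicular transporter transcript in every library. CHGB per 100 counts of CHGA overlapped between groups, at 54.8 ± 2.64, 47.7 ± 2.85 and 51.9 ± 9.26 (SD, n = 3). DDC per 100 counts of DBH was 8.82 ± 0.731 in controls, 9.27 ± 0.716 at 10 nM and 11.0 ± 0.748 at 20 nM (SD, n = 3), with the 20 nM libraries above all others.

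**Figure D4:**
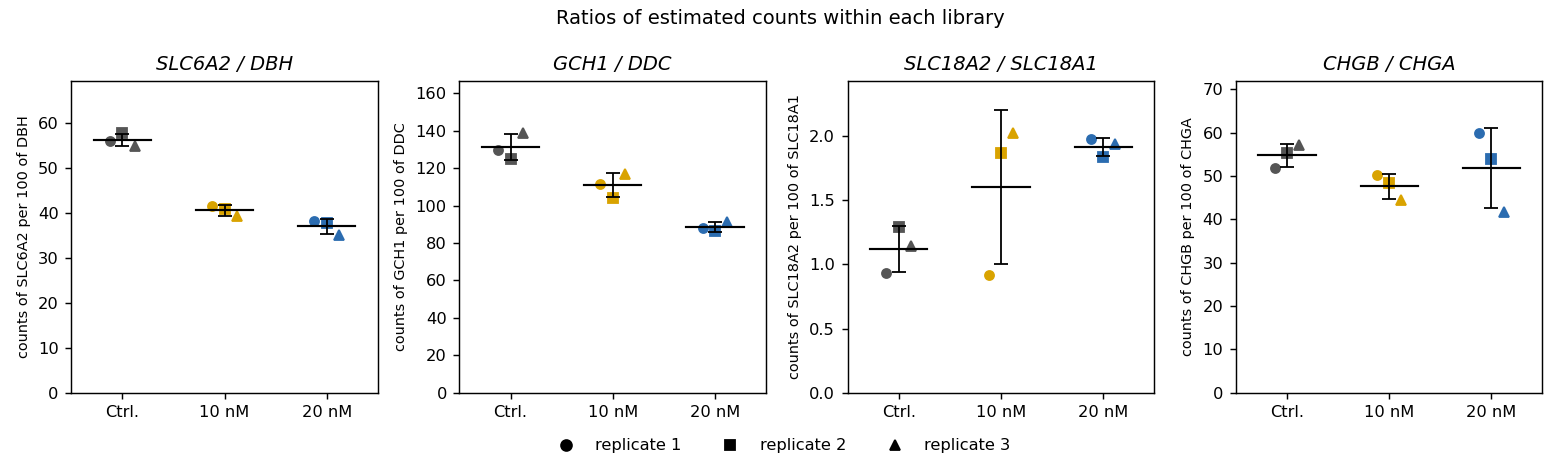
Counts of a member per 100 counts of another in the same library, for 4 pairs, on linear axes from 0. Symbols mark the replicate number, lines the mean and bars the SD of 3 libraries. SLC6A2 per DBH and GCH1 per DDC separate the 3 groups, and CHGB per CHGA does not.

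The 3 genes whose log2 CPM ran most like a called member over the 9 libraries were noted as a description, since the libraries share groups and replicate numbers. For SLC6A2 they were SFMBT2 (Pearson r = 0.99), AKIRIN1 (0.98) and IGSF9B (0.98). For DDC they were KCNK9, ZNF469 and ATP1B1 (0.98 to 0.99), and for SLC18A1 SPOCK2, CTSL and DKK3 (0.97 to 0.98). TH ran most like CPEB1, RBMX2 and CNIH2 (0.93 to 0.97). In their canonical 3′ UTRs, IGSF9B had 7 seed matches, AKIRIN1 3, KCNK9 2 and ZNF469 and SPOCK2 1 each, and the other 7 of these genes had 0. Among all genes with a canonical 3′ UTR 35.8% held a match, and the UTR of IGSF9B is long, at 12631 bases.

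Other genes of the pathway were counted by lists. At 20 nM 7.8% of all genes passed as higher and 6.08% as lower, and the counts of each list are to be read beside these shares. Of 11 other synthesis and cofactor genes, all in the table, 1 was higher and 2 were lower at 20 nM. SLC31A1, a copper importer, held 43.8 to 48.7 CPM in controls and 67.9 to 72.9 CPM at 20 nM (log2 fold change 0.58, adjusted p = 9.85e-05 by edgeR). PNMT, which turns noradrenaline into adrenaline, held 6.33 to 7.41 CPM in controls and 4.90 to 7.70 CPM at 20 nM, so its libraries overlapped although the fit called it lower (-0.47, adjusted p = 0.0414 by edgeR).

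Of 8 other amine transporters 3 were in the table, and SLC18A3, the vesicular acetylcholine transporter, was higher at 20 nM (24.0 to 24.5 CPM in controls, 30.0 to 38.5 CPM at 20 nM, log2 fold change 0.35, adjusted p = 0.00460 by edgeR). The dopamine transporter SLC6A3 was not listed. Of 12 other breakdown genes 10 were in the table, with ALDH9A1 higher (51.2 to 54.4 CPM in controls, 64.0 to 74.6 CPM at 20 nM) and ALDH7A1 lower (58.8 to 62.3 CPM in controls, 49.9 to 55.7 CPM at 20 nM). Both are aldehyde dehydrogenases, and their libraries did not overlap between these groups, as for 28.9% of all genes. Of 14 catecholamine receptors 4 were in the table, and DRD2, the dopamine autoreceptor gene, was higher at 20 nM (9.86 to 13.6 CPM in controls, 16.8 to 29.2 CPM at 20 nM, log2 fold change 0.60, adjusted p = 0.00896 by edgeR).

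Of 17 other granule matrix and prohormone processing genes 11 were in the table. At 20 nM 4 were higher and 0 lower, where 7.8% and 6.08% of all genes were, with a median log2 fold change of 0.24 in the list. The 4 higher genes included the neuropeptides GAL (log2 fold change 0.49, adjusted p = 3.21e-05 by edgeR) and VIP (1.37, adjusted p = 0.00540 by edgeR) and the granin SCG2 (0.50, adjusted p = 0.0201 by edgeR). GAL held 80.8 to 83.0 CPM in controls, 93.6 to 95.2 CPM at 10 nM and 98.5 to 115 CPM at 20 nM, and it was the single gene of the list that also passed at 10 nM. No gene of the list passed there without a surrogate variable or in 8 of 9 omissions of a library. VIP was low, at 0.919 to 1.27 CPM in controls and 1.58 to 3.22 CPM at 20 nM. SCG2 held 46.2 to 64.2 CPM in controls and 70.3 to 79.6 CPM at 20 nM. Libraries of CHGA and CHGB overlapped between these groups, but a difference of SCG2 from them was not tested.

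Of 22 granule biogenesis and release genes 20 were in the table, with 0 higher and 3 lower at 20 nM and a median log2 fold change of 0.05. Of all genes 13.9% passed there, 7.8% higher and 6.08% lower. By concentration the list counted 2 higher and 3 lower, where 9.92% and 7.64% of all genes passed. SYT4, a synaptotagmin of dense-core vesicles, held 397 to 426 CPM in controls, 312 to 355 CPM at 10 nM and 255 to 315 CPM at 20 nM. SYT4 passed at 10 nM (log2 fold change -0.28, adjusted p = 0.0257 by edgeR) and at 20 nM (-0.38, adjusted p = 0.00102 by edgeR). At 10 nM no gene of this list passed without a surrogate variable. The same held when any of control libraries 1, 2 and 3 or 10 nM libraries 1 and 3 was left out. Leaving out 10 nM library 2 or any 20 nM library kept the count at 1 lower. The canonical 3′ UTR of SYT4 held 1 match, a 6-mer. SV2A, a vesicle glycoprotein, and UNC13A, a priming factor, were called lower at 20 nM (-0.29 and -0.20), but their libraries overlapped the controls, and the mean CPM of UNC13A was 98.0 in controls and 102 at 20 nM. The fit and the raw levels thus differ for UNC13A, which held 87.6 to 131 CPM at 20 nM.

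The counts of these lists moved with the fit. Without the third 20 nM library, where 17.8% of all genes passed, the granule matrix list counted 6 higher and 0 lower at 20 nM and the granule biogenesis and release list 1 higher and 5 lower. The granule matrix list counted 2 higher without the first control library, without the first 20 nM library, by DESeq2 or without a surrogate variable. The release list counted 1 lower without a surrogate variable and 2 higher with 3 lower when only controls and 20 nM libraries were fitted. Of the noradrenergic factors given above, ISL1 passed at 20 nM in the fit over all 9 libraries (219 to 238 CPM in controls, 167 to 196 CPM at 20 nM, log2 fold change -0.27, adjusted p = 0.00717 by edgeR), and the other 5 did not. The part of ISL1 in the changes of the members was not tested.

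**Figure D5:**
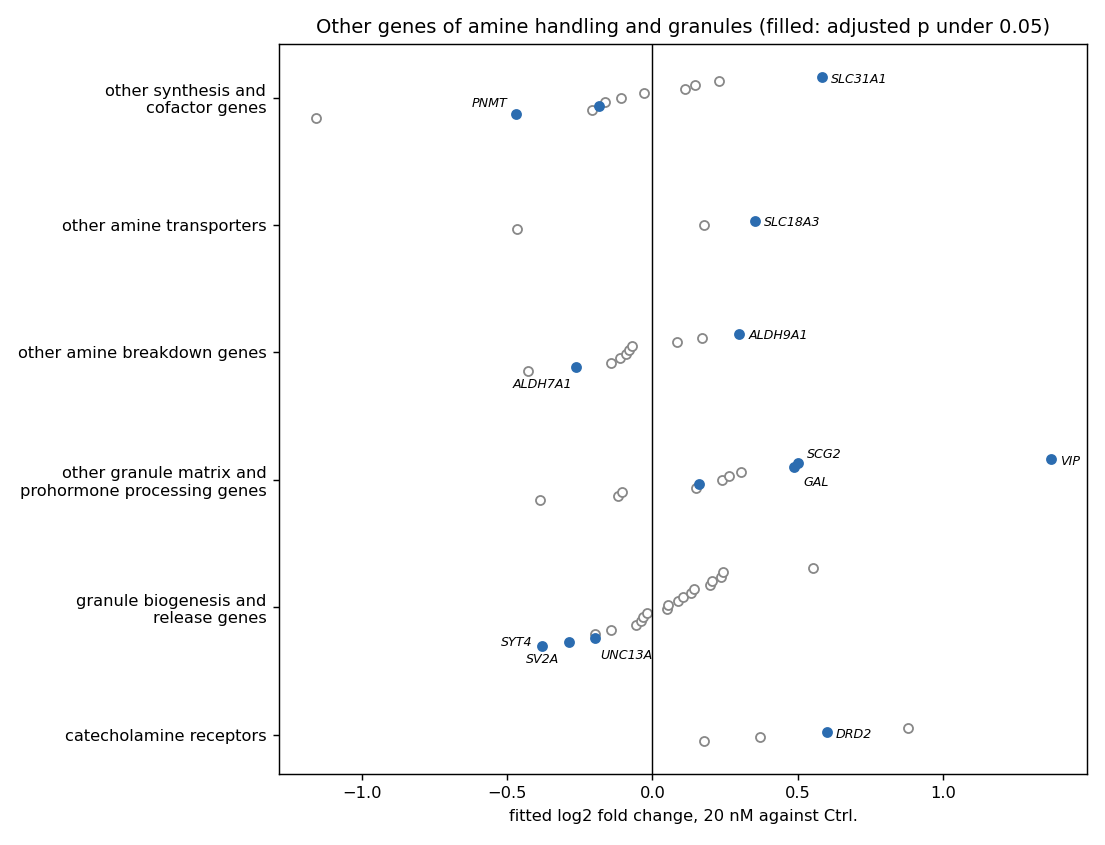
Fitted log2 fold change at 20 nM against control cells of the other pathway genes, by list, each point 1 gene of the table. Filled points have an adjusted p under 0.05 by edgeR, and some of them are named. Granule matrix genes past the threshold lie to the right of 0 and granule release genes past the threshold to the left. Of the latter, SV2A and UNC13A overlap the controls in their libraries.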

How the data were processed

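SH-Sy5y RNA from 3 groups of 3 libraries was analysed, grouped by the sample titles. Where possible the study pooled RNA of a pair of wells. The authors mapped reads with Salmon to GRCh38.p13 (Ensembl 107), summed them per gene symbol and filtered low genes. The deposited values are estimated counts, 88.8% of them not whole, for 14943 genes. Whether counting used strand is not stated in the sources used here. The deposited normalised table and the authors' tables of log2 fold changes and p-values were not used.

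Estimated counts were rounded and tested with edgeR 4.0.16 (R 4.3.3): TMM scaling, filterByExpr, surrogate variables by sva 3.50.0 (seed 1, held between 1 and 3, 1 found), quasi-likelihood test, Benjamini-Hochberg adjustment over all genes, threshold 0.05. Standard errors were taken from each fold change and its F value. No surrogate correction enters CPM. limma 3.58.1 and DESeq2 1.42.0 served the alternatives, which covered scaling, filters, surrogate variables, tests and omitted libraries. The alternative without a further filter repeats the main fit, since filterByExpr removed no gene. Lengths and 3′ UTRs came from GENCODE 44, where 14105 genes were found by ID and 768 by symbol, leaving 70.

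Named were all 10 members, up to 3 genes per list with the smallest adjusted p at 20 nM, and for each called member the 3 genes most like it among those of at least 1 CPM. Some genes of the lists are not reported here. Members and lists were chosen with earlier results of these data known. On simulated counts for 20 nM against Ctrl. (14879 to 14887 genes), 52 to 55 of 100 genes changed by 0.3 (log2) and 87 to 88 of 100 changed by 0.6 were recovered. For 10 nM against Ctrl., where the change was smaller, it was 3 to 4 and 38 to 40. In the 2 simulations false calls numbered 11 to 16 for 20 nM and 3 to 8 for 10 nM, each against Ctrl. Depth was 17.4 to 28.2 M per library.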

Additional observations from a re-analysis of the deposited data

How the results depend on the processing

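With 20 alternative fits (19 between the mimic groups), the number of members past the threshold moved as follows. At 10 nM it was 0, and became 3 with 2 surrogate variables, 2 with the edgeR likelihood-ratio test, 2 with DESeq2, 4 with only the compared groups, and 0 to 2 with a library left out. At 20 nM it was 4, became 8 with a replicate block instead of surrogate variables (DBH, SLC18A2, CHGA and CHGB were then called higher too), was 3 with the 1 CPM filter or DESeq2 and 5 with only the compared groups, and ran from 2 to 5 with a library left out (2 without the first control, the first 20 nM or the second 20 nM library). Between the mimic groups it was 0, and 1 with DESeq2. By concentration it was 4, 8 with the replicate block, 3 without a surrogate variable, 5 with the likelihood-ratio test and 3 to 5 with a library left out. Leaving out the third 20 nM library and estimating the number of surrogate variables again, chosen after seeing the data, gave 5 members at 10 nM, 8 at 20 nM and 3 between the mimic groups, where 8.82%, 29.2% and 10.0% of all genes passed. With the replicate block, where 13.6% of all genes passed at 20 nM, the granule release list counted 4 higher and 2 lower. A fit by concentration with 2 surrogate variables, also added then, gave 4. The cause was not tested.

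Replicate numbers were not taken as pairs: correlations of same-numbered libraries, as deviations from their group means, ran from 0.084 to 0.259 (8 of 9 over 0.1), against -0.222 to 0.057 for others. All 9 libraries correlated best with one of their own number, a hint from the data, not the design.

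Directions turned in comparisons where the member concerned had not passed. MAOA at 10 nM (0.04) was -0.0076 without a surrogate variable, -0.014 with 2, -0.0099 with the replicate block and -0.0045 with only the compared groups. CHGA at 20 nM (-0.01) was 0.40, 0.12, 0.36 and 0.16 in the same order, and 0.12 in the added fit without the third 20 nM library. Between the mimic groups, DBH (-0.09) was 0.022 without a surrogate variable and 0.017 with the block, and CHGA (-0.22) was 0.088 and 0.071. GCH1 with the block was 0.0015 both at 20 nM and by concentration. With a library left out, values ran at 10 nM from -0.86 to 0.085 for TH, -0.041 to 0.14 for GCH1, -0.036 to 0.13 for MAOA and -0.10 to 0.21 for CHGB. They ran at 20 nM from -0.15 to 0.19 for CHGA and -0.041 to 0.24 for CHGB, between the mimic groups from -0.058 to 0.19 for CHGB, and by concentration from -0.17 to 0.0062 for GCH1. Of the called members, DDC and SLC6A2 passed at 20 nM in 20 of 20 fits, SLC18A1 in 17 of 20 and TH in 11 of 18. These tallies include the fit without a further filter, which repeats the main fit. TH could not be fitted under the filter of at least 1 CPM, and DESeq2 gave no adjusted p for it.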
